A study of Mus musculus with 3 samples.

Results

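The cytosolic ribosomal protein genes encode the protein part of the ribosome that translates messenger RNA in the cytoplasm. They were chosen by symbol alone, as the Rpl and Rps genes with a number, plus Rplp0, Rplp1, Rplp2 and Rpsa. Genes marked as pseudogenes by name and the Rps6k kinases were left out. The rule found 84 of the 28692 genes in the count tables and used no measured value. Of these, 46 belong to the large subunit, 31 belong to the small subunit and 7 are paralogues (Rpl3l, Rpl6l, Rpl7l1, Rpl10l, Rpl22l1, Rpl39l and Rps27l). All 84 were found under the same symbol in GENCODE vM21 on GRCm38, on 19 chromosomes. Of the 84, 83 were annotated as protein coding, and Rpl6l was annotated as a processed pseudogene.

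RNA was counted in single liver cells from 3 male mice aged 8 weeks, 1 mouse and 1 library per diet; the strain was not given in the sources used here. One mouse ate chow; the others were fed ethanol, at 5% in a Lieber-DeCarli liquid diet, one for 3 days and one for 10 days. The live cells had been sorted for high F4/80 and intermediate CD11b, a gate for Kupffer cells, the macrophages that live in the sinusoids of the liver. The control ate chow rather than an ethanol-free liquid diet. The effect of ethanol, of liquid food, of the single mouse and of the single library on a value therefore cannot be told apart. With 1 sample per diet no test between diets was possible, and all intervals given below for diets are 95% intervals that cover counting error only.

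A ribosome holds 1 copy of most of its proteins, and their genes are usually expressed together at a high level. Their messenger RNAs typically begin with a run of pyrimidines (the TOP motif), through which mTORC1 and the RNA-binding protein Larp1 control their translation and stability with nutrient supply. Lymphocytes carry a large share of their messenger RNA as these transcripts, while macrophages spend more of theirs on secreted, lysosomal and receptor proteins.

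The start sites below are shown because this run of pyrimidines is the sequence feature that the family is known to share. They belong to the 5 genes with the lowest and the 5 with the highest ratio of 10 days over chow in Kupffer-like cells, among 51 measured members with exactly 1 start in the RefSeq table. Each window covers the 10 bases before and the first 20 bases of the RefSeq transcript (GRCm38.p6), 5′ to 3′ on the strand of the gene, and capitals mark the longest run of 6 or more C or T.
Rplp0: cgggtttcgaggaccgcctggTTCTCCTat
Rps2: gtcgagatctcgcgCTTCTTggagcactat
Rpl15: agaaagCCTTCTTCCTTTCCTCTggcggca
Rpl13: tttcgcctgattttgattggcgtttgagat
Rpl27: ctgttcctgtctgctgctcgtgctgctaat
Rpl7l1: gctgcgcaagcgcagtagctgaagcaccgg
Rpl37a: ctcgccggtctaaaaccgcgcatgcgcatt
Rps9: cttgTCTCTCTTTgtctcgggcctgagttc
Rpsa: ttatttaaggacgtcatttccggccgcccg
Rps26: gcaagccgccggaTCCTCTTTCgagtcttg

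The windows of the 5 genes with low ratios lie at chr5:115559457-115559486 (Rplp0, plus strand), chr17:24720053-24720082 (Rps2, plus), chr14:18270967-18270996 (Rpl15, minus), chr8:123102340-123102369 (Rpl13, plus) and chr11:101442235-101442264 (Rpl27, plus). Those of the 5 genes with high ratios lie at chr17:46782637-46782666 (Rpl7l1, minus), chr1:72711250-72711279 (Rpl37a, plus), chr7:3704031-3704060 (Rps9, plus), chr9:120127756-120127785 (Rpsa, plus) and chr10:128626487-128626516 (Rps26, minus). A run was present in 3 of the 5 genes with low ratios, at 17 bases in Rpl15, 7 in Rplp0 and 6 in Rps2, and in 2 of the 5 with high ratios, at 9 bases each in Rps9 and Rps26. Over all 75 windows of members in the table, 40 (53.3%) held such a run, against 28.7% of the 32851 windows of all genes. These 75 windows came from 63 genes, so some members had more than 1 window and others had none. A run was counted anywhere in the window, so it need not begin the transcript. Among the 51 genes with 1 start, the 29 with a run had a median ratio of 10 days over chow of 0.79 and the 22 without one had 0.801, over ranges of 0.575 to 1.08 and 0.636 to 1.12. A RefSeq start may lie away from the start used in these cells, so a window without a run says only that these 30 bases hold none. By GENCODE vM21 the whole Rpl37a window lies before the start of the gene. The windows of Rps2, Rpl15 and Rps9 lie wholly inside the gene, past its outermost start, and the gap is widest for Rps2. The runs shown for these genes may therefore not mark the start used. The ETS-type motif CCGGAAG, read on both strands, was in 36% of the 300-base promoters of members, against 8.86% of all promoters. TATAAA in the 50 bases before the start was in 1.33% of members' promoters and 2.63% of all.

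The libraries held 21650747 (chow), 21471782 (3 days) and 16538895 (10 days) UMIs, which are counted molecules. After cells with fewer than 1000 UMIs or 300 genes or with over 10% mitochondrial UMIs were left out, 2767, 4061 and 3014 cells remained, where the submitters state an average of 3000 to 5000 cells per sample. Pairs of libraries shared 13 to 20 cell barcodes, where 11.3 to 16.6 would be shared if barcodes were drawn at random. Clusters made without ribosomal protein genes gave 2430, 3653 and 2675 Kupffer-like cells, 117, 90 and 153 T and NK-like cells and 37, 91 and 64 endothelial-like cells. All 20 Kupffer markers were detected in Kupffer-like cells, at 39742 to 41152 summed CPM (CPM are UMIs scaled to the same total in every library and class), against 2717 to 3007 CPM in T and NK-like cells. The 28 T and NK markers summed to 18703 to 18760 CPM in T and NK-like cells, against 132 to 174 CPM in Kupffer-like cells. The 20 endothelial markers summed to 26438 to 30256 CPM in endothelial-like cells, against 1223 to 1765 CPM in Kupffer-like cells.

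In Kupffer-like cells, ribosomal protein genes made up 13.3% of UMIs on chow (interval 13.31% to 13.35%), 13.3% after 3 days (13.29% to 13.32%) and 11.3% after 10 days (11.28% to 11.32%). The share after 10 days was 0.847 times that on chow (interval 0.845 to 0.85), while the share after 3 days was 0.998 times that on chow (0.996 to 1). Single Kupffer-like cells ranged more widely than the libraries, with quartiles of 10.2% and 14.6% on chow, 10.2% and 14.5% after 3 days and 8.04% and 12.4% after 10 days. In T and NK-like cells the share was 31.6% on chow (31.4% to 31.7%), 31.1% after 3 days (30.9% to 31.3%) and 32.8% after 10 days (32.7% to 33%). In endothelial-like cells it was 11.5% (11.3% to 11.7%), 13.2% (13.1% to 13.4%) and 12.3% (12.1% to 12.4%) in the same order. The ratio of 10 days over chow was 1.04 (1.03 to 1.05) in T and NK-like cells and 1.06 (1.04 to 1.09) in endothelial-like cells, on the other side of 1 from the 0.847 in Kupffer-like cells.

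**Figure D1:**
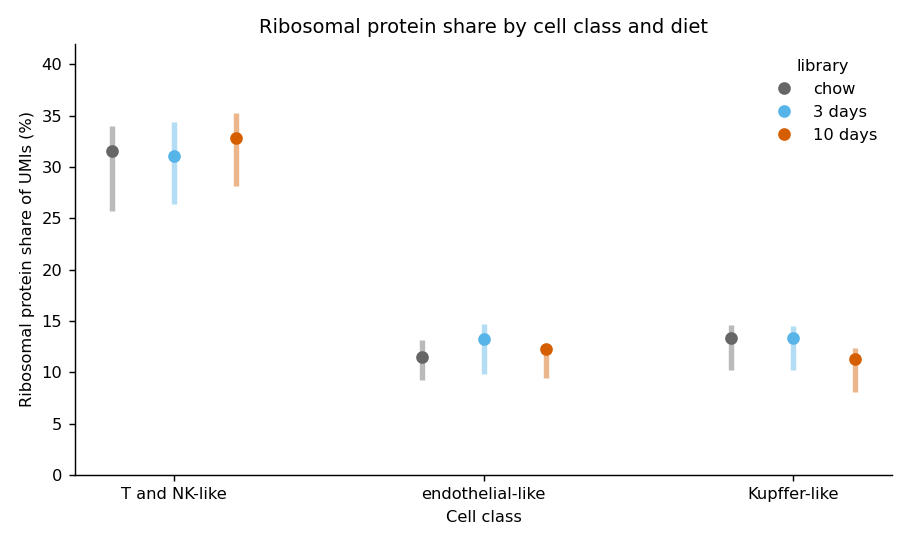
Share of UMIs (%) from the 84 ribosomal protein genes by cell class (x axis) and library (colour); points are summed counts of all cells of a class and thick lines span the quartiles of single cells. T and NK-like cells lie at 31.1% to 32.8% in all 3 libraries, and the Kupffer-like point after 10 days (11.3%) lies below those of chow and 3 days (both 13.3%).

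The lower Kupffer-like share after 10 days came together with differences in the depth, the mitochondrial share and the clusters of the cells. Median UMIs per Kupffer-like cell were 4591.5 on chow, 3039 after 3 days and 3052 after 10 days, and median mitochondrial shares were 5.24%, 5.18% and 6.43%. Across cells of 1 library, the ribosomal protein share followed UMIs per cell (Spearman 0.63 on chow, 0.72 after 3 days and 0.73 after 10 days, over 2430, 3653 and 2675 cells) and went against the mitochondrial share (-0.40, -0.34 and -0.40). These points share a library and a total, so the values are descriptions. Cluster 2, led by Cxcl13, held 53.4% of Kupffer-like cells on chow. Cluster 1, led by Ttc39c, Vcam1 and Cd163, held 45.3% after 3 days. Cluster 3, led by the early response genes Klf4, Nr4a1 and Dusp1, held 48.1% after 10 days.

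Within clusters 2 and 3, the ratio of 10 days over chow was 0.998 and 0.995. It was 0.956 in cluster 1, 0.861 in cluster 0 (cells of low UMI count, led by Marco and Hmox1) and 0.827 in cluster 7 (proliferating cells). Cluster 7 held only 45 cells on chow and 53 after 10 days, with median UMIs of 6660 and 4165. Cluster 1 held 168 and 95 cells. Cells of 1000 to 2000 UMIs had a share of 7.49% after 10 days, against 8.47% on chow, a ratio of 0.885. The ratio was 0.934 in cells of 2000 to 4000 UMIs, 0.942 in cells of 4000 to 8000 UMIs and 1.02 in deeper cells, of which the 10-day library held 23. At 3 days the same 4 classes of depth gave ratios over chow of 1.09, 1.14, 1.07 and 1.10, all above 1 although the ratio over all Kupffer-like cells was 0.998. The deepest class held 22 cells after 3 days. By mitochondrial share, the ratio of 10 days over chow was 1.03 in cells below 4%, where 78 cells after 10 days qualified, and 0.897, 0.894 and 0.857 in the classes of 4% to 6%, 6% to 8% and 8% to 10%. In barcodes with 1 to 20 UMIs, which hold free RNA, the share was 10.3% on chow, 10.1% after 3 days and 9.51% after 10 days, a ratio of 10 days over chow of 0.923. With each cluster given equal weight the ratio of 10 days over chow was 0.927. With 3 classes of UMIs given equal weight it was 0.925, without the class of 8000 or more UMIs, where the ratio was 1.02. With 3 mitochondrial classes given equal weight it was 0.884, without the class below 4%, where the ratio was 1.03. With free RNA subtracted the ratio over all Kupffer-like cells was 0.827. The part of depth, mitochondrial share and clusters all at once was not tested.

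**Figure D2:**
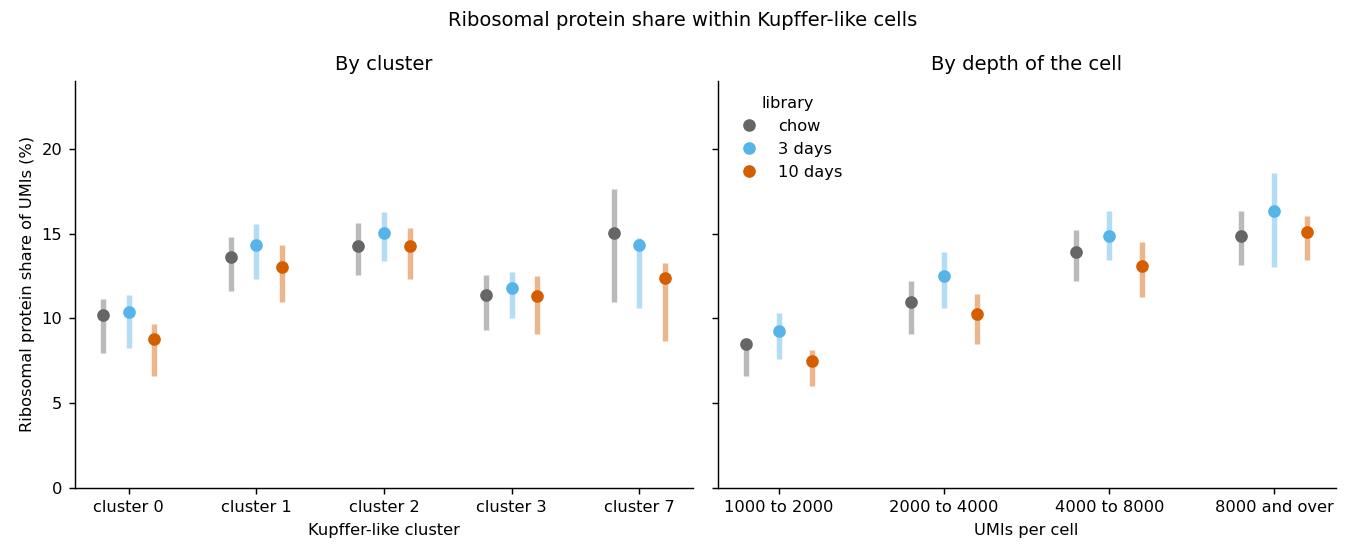
Ribosomal protein share of UMIs (%) in Kupffer-like cells by cluster (left) and by UMIs per cell (right); points are summed counts, thick lines are quartiles of cells and colours are libraries. The share is higher in deeper cells of every library, and within clusters 2 and 3 the chow and 10-day points differ little (ratios 0.998 and 0.995).

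Of the 84 members, 83 had at least 1 UMI in Kupffer-like cells, and 81 were measured, defined as a mean of at least 10 CPM. Levels were high throughout: 79 members exceeded 300 CPM and 52 exceeded 1000 CPM. UMIs are counted once per molecule at the 3′ end, so these CPM values carry no length term. Rps29, a short zinc-binding protein of the small subunit, was the highest, at 10419 CPM on chow, 11217 after 3 days and 9935 after 10 days. Rpl37a had 5517, 6719 and 6190 CPM, and Rpl41, which encodes a very short basic peptide of the large subunit, had 5379, 6046 and 5393 CPM. The other members among the 10 highest were Rps28, Rplp1, Rps27, Rps27a, Rpl38, Rpl35a and Rpl37, with means of 2619 to 3857 CPM. The 10 highest members held 31.8% of ribosomal protein UMIs on chow, 34.5% after 3 days and 36.1% after 10 days.

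The ratio of 10 days over chow was below 1 for 72 of 81 measured members, where 39.7% of all 7521 measured genes lay below 1. Those above 1 were 3 large subunit genes, 5 small subunit genes and the paralogue Rpl7l1. The median log2 ratio was -0.32 for members and 0.08 for all measured genes, on the scale of log2 of CPM plus 1. Past 1.2-fold with an interval that excluded 1, 49 members were lower (12.4% of all genes) and 0 were higher (22.4% of all genes). Past 1.5-fold, 7 were lower (2.29% of all genes) and 0 were higher (3.96%). At 3 days, 53 of 81 lay below chow (43.7% of all genes) and the median was -0.06, against 0.04 for all genes. There 7 members were lower (11.3%) and 2 were higher (18.7%) past 1.2-fold, and 0 were lower (1.33%) or higher (3.27%) past 1.5-fold. For 10 days over 3 days, 77 members lay below 1 (46.1% of all genes), with 42 lower (11.0%) and 0 higher (14.4%) past 1.2-fold and 0 lower (1.98%) or higher (2.5%) past 1.5-fold. These 3 comparisons share libraries, so they are not independent of one another. Within single clusters the median log2 ratio of 10 days over chow was -0.28 in cluster 0, -0.07 in cluster 1, -0.02 in cluster 2, -0.01 in cluster 3 and -0.38 in cluster 7. The count of 7 past 1.5-fold was 15 with TMM factors or with free RNA subtracted, 1 with a mitochondrial limit of 5% and 0 with each cluster given equal weight. The count of 49 past 1.2-fold was 27 with the limit of 5% and 11 with equal weight for each cluster. Shares of all genes were not computed under these alternatives.

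The stalk of the large subunit recruits the elongation factors that drive each step of translation. Rplp0 (chr5:115559467-115563727 in GENCODE vM21, plus strand), the scaffold of the stalk, was at 894 CPM on chow, 606 CPM after 3 days and 514 CPM after 10 days in Kupffer-like cells. Its ratio to chow was 0.678 after 3 days and 0.575 (0.556 to 0.596) after 10 days, the lowest of the 81 measured members in both comparisons. Its ratio of 10 days over chow was below 1 in each of the 5 clusters, at 0.662 in cluster 0, 0.833 in cluster 1, 0.804 in cluster 2, 0.953 in cluster 3 and 0.617 in cluster 7. Rplp1, which binds Rplp0 as a dimer with Rplp2, had 3522, 2878 and 3072 CPM on chow, after 3 days and after 10 days. Its ratio was thus lower after 3 days (0.817) than after 10 days (0.872). Rplp2 had 1986, 1977 and 1904 CPM, ratios of 0.995 and 0.959, closer to chow than those of its partner. Rpl12, at the base of the stalk, had 608, 498 and 465 CPM, with ratios of 0.818 and 0.765.

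Of the 46 large subunit genes, 43 lay below chow after 10 days (39.7% of all genes), 31 of them past 1.2-fold with an interval that excluded 1 (12.4% of all genes), with a median log2 ratio of -0.37. Rpl29 (chr9:106429454-106431568, plus strand), also known to bind heparin, had 530 CPM on chow, 398 after 3 days and 318 after 10 days, a ratio of 10 days over chow of 0.6 (0.573 to 0.627). Rpl15 (chr14:18267823-18271391, minus strand) had 427, 361 and 261 CPM, a ratio of 0.611 (0.581 to 0.642). Rpl13 had 1676, 1448 and 1066 CPM, a ratio of 0.636. Rplp0, Rpl29, Rpl15 and Rpl13 were among the large subunit genes past 1.5-fold. Of these, Rpl15 was below 1 in 3 of 5 clusters, Rpl29 and Rpl13 in 4 of 5, and Rplp0 in 5 of 5. Rpl6 (0.711), Rpl3 (0.716), Rpl15 (0.724) and Rpl17 (0.727) had low ratios of 10 days over 3 days. At the other end, Rpl37a (chr1:72711290-72713813, plus strand) had ratios to chow of 1.22 after 3 days and 1.12 (1.11 to 1.13) after 10 days, and Rpl41 had 1.12 and 1.00. Rpl37a was above 1 in 5 of 5 clusters after 3 days and in 3 of 5 after 10 days. Rpl5 and Rpl11, which bind 5S ribosomal RNA and can hold back Mdm2 when ribosome assembly is disturbed, differed from each other. Rpl5 had 523, 528 and 467 CPM, a ratio of 10 days over chow of 0.893 (0.858 to 0.929), and Rpl11 had 1145, 1103 and 853 CPM, a ratio of 0.745 (0.724 to 0.766).

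Of the 31 small subunit genes, 26 lay below chow after 10 days (39.7% of all genes), 17 of them past 1.2-fold with an interval that excluded 1 (12.4% of all genes), with a median of -0.31. Rps2 (chr17:24718116-24721929, plus strand), near the entry of the messenger RNA channel, had 946 CPM on chow, 741 after 3 days and 569 after 10 days, a ratio of 10 days over chow of 0.602 (0.582 to 0.622). It was the 1 small subunit gene past 1.5-fold, and it was below 1 in 4 of 5 clusters. Rps6, the target of the S6 kinases downstream of mTORC1, had 990, 897 and 683 CPM, with ratios of 0.906 after 3 days and 0.69 after 10 days. Rps9 (chr7:3703993-3706897, plus strand), a protein of the small subunit body, stood at the other end. It had 1961 CPM on chow, 2573 after 3 days and 2127 after 10 days, with ratios of 1.31 and 1.08 (1.06 to 1.11). Rps9 was above 1 in 5 of 5 clusters in both comparisons with chow, from 1.18 to 1.39 after 3 days and from 1.06 to 1.15 after 10 days. Rps3a1 and Rps27a, whose protein is made as a fusion with ubiquitin, had ratios of 1.17 and 1.16 after 3 days and of 0.978 and 0.999 after 10 days. Rps21 (1.09) and Rpsa (1.05), a small subunit protein also known as a laminin receptor, were above chow after 10 days over all Kupffer-like cells. Within clusters Rpsa was below 1 in 4 of 5 and Rps21 in 3 of 5. The highest ratios of 10 days over 3 days belonged to Rpl7l1 (1.10), Rplp1 (1.07), Rps21 (1.07), Rpsa (1.00) and Rps26 (0.993).

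Over the 5 clusters, 26 of 81 measured members had a ratio of 10 days over chow below 1 in every cluster (8.08% of all genes), among them Rplp0, Rpl3, Rpl4, Rps6 and Rps16, and 1, Rps9, had a ratio above 1 in every cluster (7.92% of all genes). At 3 days, 11 members were below chow in every cluster (11.2% of all genes), including Rplp0, Rplp1, Rpl12, Rpl29 and Rps2. Another 10 were above chow in every cluster (10.2% of all genes), including Rps9, Rpl37a, Rps3a1, Rps27a, Rps29 and Rpl41. Both counts at 3 days are near the share of all genes. For 10 days over 3 days the counts were 39 below (10.3%) and 2 above (10.3%), Rplp1 and Rpl7l1. The shares of all genes include genes down to 10 CPM, whose direction in small clusters rests on few UMIs, while 79 members exceeded 300 CPM. Shares matched for level were not computed.

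**Figure D3:**
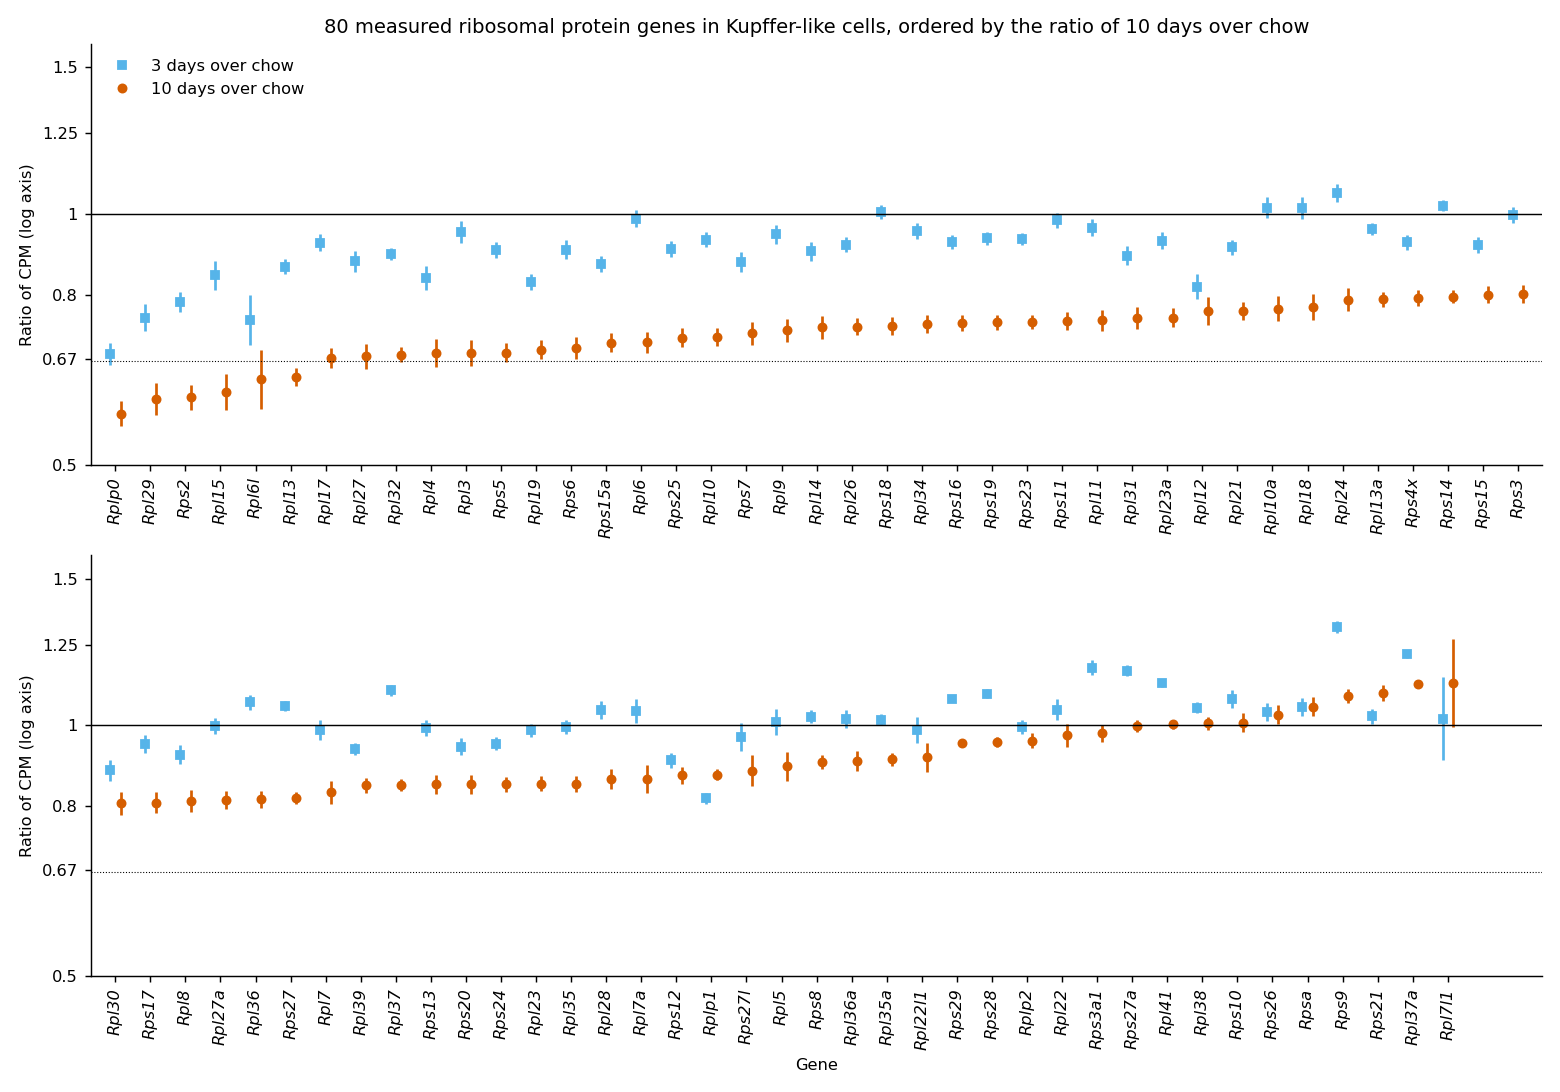
Ratio of CPM to chow in Kupffer-like cells (log axis) for 80 of the measured members, ordered by the ratio of 10 days over chow; blue squares are 3 days over chow, orange circles are 10 days over chow, lines are 95% counting intervals and the dotted line marks a ratio of 1/1.5. The 10-day circles lie below 1 for 71 of the genes drawn, and Rplp0 has the lowest value in both series.

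Of the 7 paralogues, 4 were measured in Kupffer-like cells, and the values of all 7 follow. Rps27l, a paralogue of Rps27 and a known p53 target, had 436 CPM on chow, 422 after 3 days and 385 after 10 days (ratio of 10 days over chow 0.882). Rpl22l1, the paralogue of Rpl22, had 503, 497 and 460 CPM (0.915). Rpl7l1 had 49.9, 50.9 and 56.1 CPM, and its ratio of 1.12 had an interval of 0.995 to 1.27. Rpl6l had 158, 118 and 100 CPM, ratios of 0.746 after 3 days and 0.633 (0.584 to 0.686) after 10 days. Its annotation as a processed copy leaves its UMIs and those of Rpl6 hard to tell apart. Rpl3l, known from muscle, had 30, 26 and 19 UMIs, and Rpl39l, known from testis, had 40, 57 and 51 UMIs, so neither reached 10 CPM. Rpl10l, also known from testis, had 0 UMIs in each library, which allows up to 0.257 CPM on chow, 0.248 after 3 days and 0.339 after 10 days. Copies are a wider limit: 60 of the 84 members have at least 1 pseudogene named after them in GENCODE vM21, up to 24 for 1 gene, and how reads shared with such copies were counted was not given in the sources used here.

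Short members lay closer to chow after 10 days than long ones. Across the 80 measured members with a coding length, the Spearman correlation of coding length with the log2 ratio of 10 days over chow was -0.43, while over 7411 measured genes it was 0.27. The median log2 ratio of members was -0.11 for the 12 with under 330 coding nucleotides, which include Rpl41 (138), Rps29 (168), Rpl37a (276) and Rps21 (249). It was -0.30 for the 25 of 330 to 450 nucleotides, -0.40 for the 18 of 450 to 600 and -0.43 for the 25 of 600 or more, which include Rplp0 (951), Rps2 (906), Rpl4 (1257) and Rpl3 (1209). Other measured genes of these 4 classes of length had medians of -0.18, -0.14, -0.04 and 0.10. Rpsa (885 nucleotides) and Rps9 (582) were exceptions among members, with log2 ratios of 0.07 and 0.12. The ratio also followed the level of the gene, with a Spearman correlation of 0.34 over 81 members, and it hardly followed GC content (-0.12). Genes of a library are not independent replicates, so these are descriptions.

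**Figure D4:**
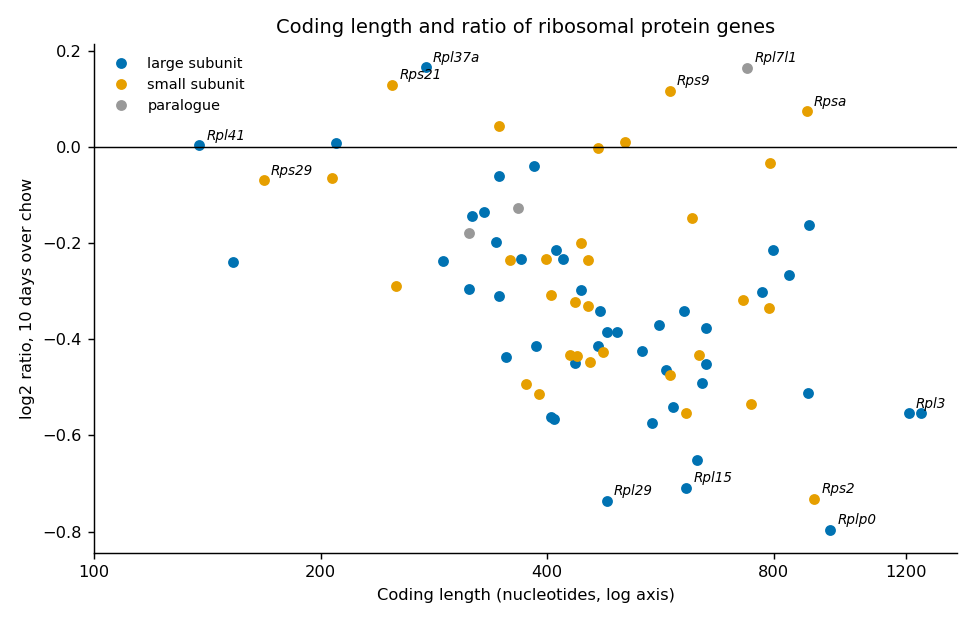
Log2 ratio of 10 days over chow in Kupffer-like cells against coding length (nucleotides, log axis) for 79 of the measured members with a coding length; colours mark the subunit. Of those drawn, Rplp0, Rps2 and Rpl15 lie lowest among genes of over 600 nucleotides, while Rpl41, Rps29, Rps21 and Rpl37a lie close to or above 0.

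Ribosomal protein genes set T and NK-like cells apart from Kupffer-like cells in all 3 libraries. With the 3 libraries as replicates of a cell class, 78 of 81 tested members were higher in T and NK-like than in Kupffer-like cells (edgeR quasi-likelihood test with the library as a block, Benjamini-Hochberg adjusted p below 0.05, over 6623 genes), where 29.3% of all genes were higher. By edgeR 0 of the 81 were lower, where 33.6% of all genes were. In that direction 1 member, Rps27l, had an unadjusted p below 0.05, DESeq2 called 0, and 6 of the 13 settings tried, among them the fit without the 10-day library, called 1 (Rps27l). The median log2 fold change was 1.62 for members and -0.12 for all genes. The same 78 were higher in each of the 3 libraries taken singly. Per cell, the median number of ribosomal protein UMIs was 1085 in T and NK-like and 585 in Kupffer-like cells of chow, 824.5 and 382 after 3 days, and 774 and 311 after 10 days, although T and NK-like cells had fewer UMIs in total (medians 3538, 2614.5 and 2448 UMIs, against 4591.5, 3039 and 3052 UMIs).

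Rplp0 had the largest difference, with 4265, 3858 and 3042 CPM in T and NK-like cells on chow, after 3 days and after 10 days, against 894, 606 and 514 CPM in Kupffer-like cells. Its log2 fold change was 2.64 ± 0.16 (SE, edgeR adjusted p = 4.62e-22). Rps6 followed, with 4355, 4169 and 4070 CPM, against 990, 897 and 683 CPM, a log2 fold change of 2.46 ± 0.16 (edgeR adjusted p = 1.56e-20). Rps7 (2.44), Rps15a (2.44) and Rpl13 (2.43) came next. At the other end were Rps27l, Rps29 and Rpl7l1. Rps29 had 8547, 8987 and 9988 CPM in T and NK-like cells, against 10419, 11217 and 9935 CPM in Kupffer-like cells, a log2 fold change of -0.05 ± 0.15 (edgeR adjusted p = 0.785). Rps27l had 252, 321 and 321 CPM, against 436, 422 and 385 CPM, a log2 fold change of -0.33 ± 0.16 (edgeR adjusted p = 0.0616), with lower values in each of the 3 libraries. Its parent Rps27 had 12386, 12146 and 14567 CPM, against 3112, 3285 and 2545 CPM, and a log2 fold change of 2.28 ± 0.16 (edgeR adjusted p = 2.29e-18). Of the called members, Rpl28 (0.74), Rpl41 (0.75) and Rpl37a (0.78) had the smallest log2 fold changes.

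In endothelial-like cells the picture was mixed, and it rests on 37 to 91 cells per library. Against Kupffer-like cells, 4 of 81 members were higher (edgeR adjusted p below 0.05, 21.9% of all genes) and 17 were lower (24.2% of all genes). By CPM without TMM factors, the libraries taken singly differed in direction. On chow 29 of the 81 were higher and 52 lower, after 3 days 53 and 28, and after 10 days 60 and 21. In all 3 libraries alike, 27 were higher and 18 lower. Shares of all genes were not computed for single libraries. Rps6 was higher, with 1633, 1909 and 1343 CPM in endothelial-like cells, against 990, 897 and 683 CPM in Kupffer-like cells, a log2 fold change of 0.71 ± 0.16 (edgeR adjusted p = 0.000156). Rpl15 (0.58), Rpl9 (0.42) and Rps27 (0.41) were the others called higher. Rps29 was the lowest, with 5162, 6448 and 6353 CPM, against 10419, 11217 and 9935 CPM, a log2 fold change of -1.05 ± 0.16 (edgeR adjusted p = 7.44e-08). Rpsa (-0.82), Rpl37a (-0.79), Rpl41 (-0.73) and Rps26 (-0.72) followed. Without TMM factors 15 members were higher and 11 lower, against 1890 and 1251 of all 6623 genes. The median of all genes was then 0.18 in place of -0.06. Relative to all genes the members' median was -0.05 with TMM factors and -0.04 without. The fit without the chow library called 3 higher and 11 lower, against 1323 and 1467 of all 6148 genes. Without the 3-day library the fit called 1 and 14, against 1211 and 1363 of 6915 genes. Without the 10-day library it called 1 and 24, against 1257 and 1443 of 6511 genes. Under all 13 settings tried, Rps6 was called higher, and 11 members, Rps29, Rpsa, Rpl37a, Rpl41, Rps26, Rplp1, Rps9, Rpl39, Rpl10a, Rps27a and Rpl38, were called lower. How many of all genes were called under all 13 settings was not counted. Kupffer markers summed to 5174 to 5800 CPM in endothelial-like cells, against 39742 to 41152 CPM in Kupffer-like cells, and the part of free RNA in these values was not tested.

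**Figure D5:**
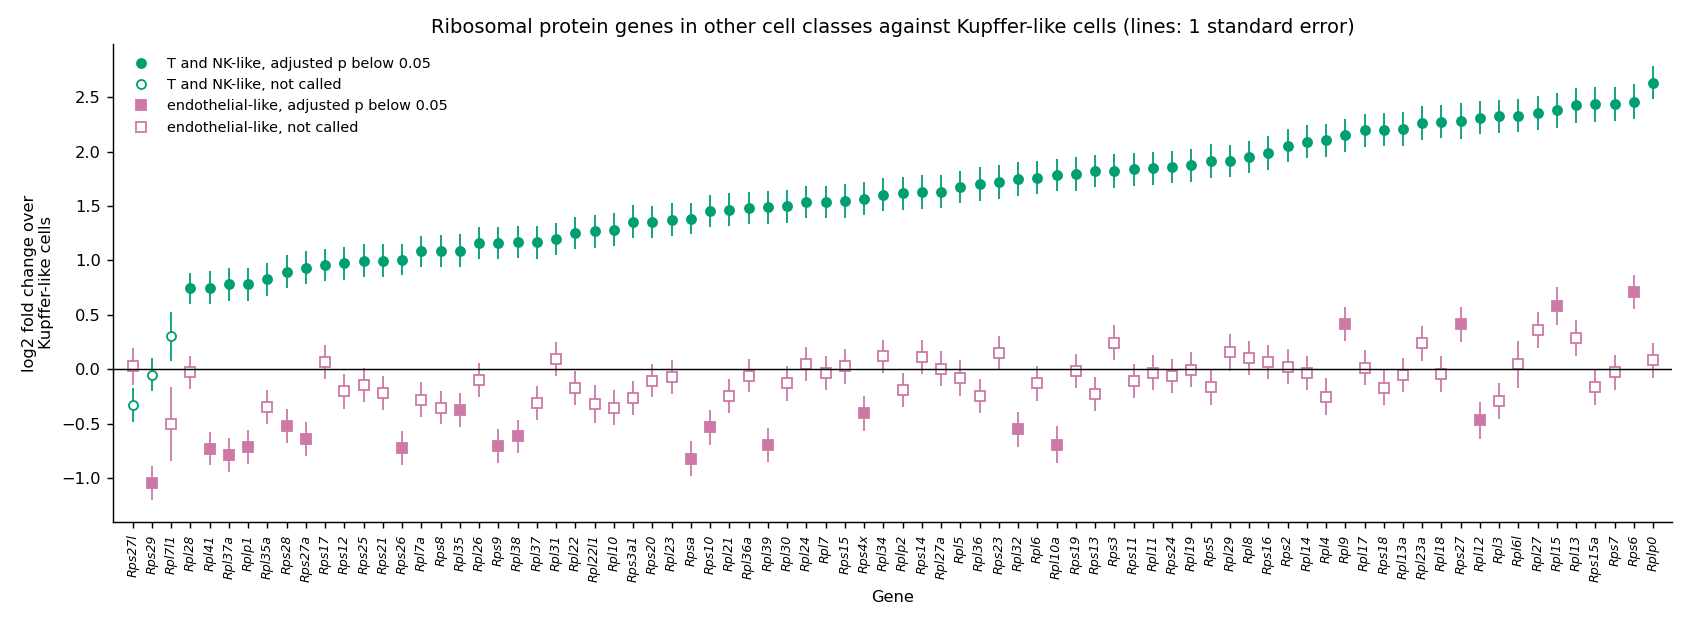
Log2 fold change of 80 of the tested members over Kupffer-like cells in T and NK-like cells (green circles) and endothelial-like cells (pink squares), ordered by the T and NK-like value; filled symbols have an edgeR adjusted p below 0.05 and lines are 1 standard error. All of those drawn but Rps27l, Rps29 and Rpl7l1 are called higher in T and NK-like cells, while 59 are not called in endothelial-like cells.

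Other genes of translation were set beside the members. Over all measured genes, 12.4% were lower and 22.4% higher past 1.2-fold for 10 days over chow, with a median log2 ratio of 0.08. Of 10 elongation factors and partners, 2 were lower past 1.2-fold for 10 days over chow and 0 were higher, with a median log2 ratio of -0.17. Eef1a1, which delivers aminoacyl-tRNA to the ribosome, had 2982 CPM on chow, 3118 after 3 days and 2921 after 10 days, and Eef2, which drives translocation, had 671, 829 and 749 CPM. Of 30 initiation factors, 4 were lower and 7 higher for 10 days over chow, with a median of 0.04, shares near those of all genes. Eif3h (0.782) had the lowest ratio and Eif2s3x (1.43) the highest. Of 33 measured genes of ribosome assembly and the nucleolus, 6 were lower and 4 higher, with a median of -0.09, and Myc, a driver of ribosome production, had the highest ratio, with 23.6, 18.9 and 37.6 CPM. Of 19 measured genes of mTORC1 and TOP control, 2 were lower and 2 higher, with a median of 0.08. In the same comparison the 72 measured genes of the mitochondrial ribosome, a separate particle for the mitochondrial genome, had a median of -0.22, with 27 lower and 1 higher.

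In T and NK-like over Kupffer-like cells, all 10 elongation genes were higher by the edgeR test (adjusted p below 0.05), where 29.3% of all genes were higher and 33.6% lower. So were 18 of 25 tested assembly genes, with 2 lower, 15 of 30 initiation factors, with 6 lower, and 37 of 67 mitochondrial ribosome genes, with 1 lower. Of 14 tested genes of mTORC1 and TOP control, 2 were higher and 6 were lower. In endothelial-like over Kupffer-like cells the same test, which called 21.9% of all genes higher and 24.2% lower, called 1 elongation gene higher and 4 lower, 3 initiation factors higher and 6 lower, and 11 mitochondrial ribosome genes higher and 3 lower.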

How the data were processed

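Single-cell libraries were made with the 10x Genomics 3′ v2 kit, per the labels' protocols, and Cell Ranger 2.2.0 with GRCm38 and mm10 is named in the submitters' processing notes. The deposited files hold raw UMI counts of every whitelist barcode. Neither the annotation release nor the handling of reads shared between gene copies is given in the sources used here. Barcodes with at least 1000 UMIs, 300 genes and at most 10% mitochondrial UMIs were kept. Scrublet in scanpy 1.11.5 marked 0% of cells and is not used as evidence on doublets; no doublets were removed, and removal of the 4% highest scores was an alternative. Cells were clustered without ribosomal protein and mitochondrial genes (2000 variable genes, 30 principal components, 15 neighbours, Leiden at 0.6, igraph 0.11.9). A cluster was named T and NK-like, endothelial-like or hepatocyte-like when 3 markers of that list were among its 25 leading genes. Clusters without this were named Kupffer-like where the level of the Kupffer markers, as the median over markers of CPM in the cluster over CPM in all kept cells, was at least 0.5; it was 0.849 to 1.15 in the 5 clusters so named, whose leading genes held 0 to 2 Kupffer markers. A cluster that met both rules was left out as mixed, except in the alternative over all kept cells.

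CPM were computed here from the deposited counts, summed by library and class. Diet ratios have exact conditional binomial 95% intervals and shares have Clopper-Pearson intervals, both for counting error only. Log2 ratios had 1 CPM added. Classes with at least 20 cells in each library were tested with edgeR 4.0.16 (TMM, filterByExpr, library as block, 4 residual degrees of freedom); DESeq2 1.42.0 was an alternative. Both procedures were tested on simulated data. P-values and standard errors between classes come from the spread between these 3 libraries after the library block, in 1 fit of all classes tested. Each standard error was derived as the absolute log2 fold change divided by the square root of the quasi-likelihood F statistic. The variance of each gene was moderated toward that of the other genes tested, so it is not that gene's own spread alone. The libraries also differ by diet.

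Named members were the 10 with the highest level, the 5 highest and 5 lowest in each comparison with at least 50 CPM in 1 library of the pair, every paralogue, and Rplp0, Rplp1, Rplp2, Rpsa, Rps6, Rpl5, Rpl11 and Rps27a. For each class the 5 highest and 5 lowest fold changes were also named. The members and lists were chosen with earlier results of these data known. Coordinates and coding lengths are from GENCODE vM21, and start sites are from RefSeq on GRCm38.p6; members on chromosome 18 were left out of the printed starts. Alternatives changed cell filters, clustering, weights, scaling, free RNA (profile of barcodes with 1 to 20 UMIs), members, tools and libraries. Some items that these rules would name are not reported here, though counts over all members include them.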

Additional observations from a re-analysis of the deposited data

Results flagged for a closer look

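The share of UMIs from ribosomal protein genes lay on opposite sides of chow in different cell classes after 10 days. The ratio was 1.04 (interval 1.03 to 1.05) in T and NK-like cells and 1.06 (1.04 to 1.09) in endothelial-like cells, against 0.847 (0.845 to 0.85) in Kupffer-like cells. For 10 days over 3 days the ratio was 1.06 (1.05 to 1.06) in T and NK-like cells, against 0.849 (0.847 to 0.851) in Kupffer-like cells. Each class has 1 library per diet, so the difference between classes was not tested, and the intervals cover counting error only. T and NK-like cells numbered 117 on chow, 90 after 3 days and 153 after 10 days, and endothelial-like cells numbered 37, 91 and 64.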

How the results depend on the processing

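The share ratio of Kupffer-like cells kept its side of 1 under all alternatives for 10 days over chow (0.809 to 0.927) and for 10 days over 3 days (0.828 to 0.922), but not for 3 days over chow (0.963 to 1.10). Among the main values under all alternatives, 141 moved by less than the limits set and 81 by more. The ratio of 3 days over chow, 0.998 with an interval that reaches 1, was above 1 with equal weight for clusters, UMI classes or mitochondrial classes. For 3 days over chow the share ratio was 0.995 with a minimum of 500 UMIs, 0.994 with a mitochondrial limit of 5%, 0.995 at a Leiden resolution of 1.0, 0.963 over all kept cells, 0.992 with equal weight for each cell, 1.02 for each cluster, 0.977 with TMM factors and 0.979 with median-of-ratios factors. For 10 days over chow it was 0.916 and 0.836 with mitochondrial limits of 5% and 20%, 0.843 at resolution 1.0, 0.856 over all kept cells, 0.829 and 0.927 with equal weight for each cell and each cluster, 0.827 with free RNA subtracted, 0.809 with TMM, 0.819 with median-of-ratios factors and 0.838 with the total taken without ribosomal protein and mitochondrial genes. For 10 days over 3 days it was 0.922 and 0.838 (limits of 5% and 20%), 0.889 (all kept cells), 0.835 (each cell), 0.908 (each cluster), 0.83 (free RNA), 0.828 (TMM), 0.837 (median-of-ratios) and 0.84 (reduced total), and a minimum of 500 UMIs gave 0.853. Equal weight for 3 UMI classes gave 1.10, 0.925 and 0.842 in the 3 comparisons and for 3 mitochondrial classes 1.01, 0.884 and 0.878. Both were chosen after seeing the data. They left out the cells of 8000 or more UMIs and the cells below 4% mitochondrial UMIs, respectively.

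Members past 1.5-fold numbered 7 for 10 days over chow, against 11 with a minimum of 2000 UMIs, 1 with a mitochondrial limit of 5%, 4 over all kept cells, 11 with equal weight for each cell, 0 for each cluster, 15 with free RNA subtracted, 15 with TMM, 14 with median-of-ratios factors, 0 with equal UMI classes and 1 with equal mitochondrial classes. For 3 days over chow they numbered 0, against 1 with a minimum of 2000 UMIs, a mitochondrial limit of 5%, all kept cells, free RNA subtracted, 4 genes added, TMM or median-of-ratios factors; for 10 days over 3 days free RNA subtracted gave 1 in place of 0. Members lower past 1.2-fold for 10 days over chow numbered 49, against 27 (limit of 5%), 11 (equal clusters) and 16 (equal UMI classes). For 10 days over 3 days 42 became 17 (all kept cells), 4 (equal clusters), 24 (equal mitochondrial classes) and, under another alternative, 7. For 3 days over chow 7 became 12 (all kept cells) and 1 (equal clusters or UMI classes). The cause of these moves was not tested, and shares of all genes were not computed under these alternatives.

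In T and NK-like cells 78 members were higher under each of the 13 settings, and 1 was lower in place of 0 with no filter, only the 2 types compared, a minimum of 2000 UMIs, a mitochondrial limit of 5% or no factors. Leaving out 1 library gave 0 to 1 lower. In endothelial-like cells the 4 higher members became 1 (no filter), 2 (no replicate block), 2 (only the 2 types), 1 (2000 UMIs), 1 (limit of 5%), 2 (4% highest Scrublet scores removed) and 15 (no factors, chosen after seeing the data), and 1 to 3 without 1 library. The 17 lower became 37 (no filter), 29 (only the 2 types) and 11 (no factors), and 11 to 24 without 1 library. With no filter, 1637 of all 16794 genes were higher and 2395 lower. With only the 2 types the counts were 1554 and 2180 of 10583 genes. With no replicate block they were 1407 and 1538 of 6623, and with no factors 1890 and 1251 of 6623. A minimum of 2000 UMIs gave 1207 and 1279 of 5897, and the limit of 5% gave 1063 and 1241 of 6060. The Scrublet removal gave 1417 and 1590 of 6581. No paired analysis was possible because each diet has 1 library; between classes the library is the block, and without it 78 members were higher in T and NK-like cells and 2 higher and 16 lower in endothelial-like cells. Small numbers of endothelial-like cells and low UMI counts of some paralogues limit the precision of those values.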

Other observations

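Some genes of the cytosolic ribosome lie outside the symbol rule. Fau, whose product includes a small subunit protein, had 2417 CPM on chow, 2245 after 3 days and 1770 after 10 days in Kupffer-like cells, a ratio of 10 days over chow of 0.732. Rpl36al had 671, 605 and 533 CPM (0.794 for 10 days over chow). Gnb2l1, which encodes the ribosomal scaffold Rack1, had 720, 781 and 701 CPM, with ratios of 1.08 and 0.974. In T and NK-like over Kupffer-like cells, these 3 genes were all higher by the edgeR test at an adjusted p below 0.05. In that test 29.3% of all genes were higher.

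Rps27rt, a retrogene named after Rps27, had 755, 678 and 642 CPM (0.851 for 10 days over chow).

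The gene table also lists 16 entries named as ribosomal protein pseudogenes. Their summed level in Kupffer-like cells was 1676 CPM on chow, 1348 after 3 days and 1561 after 10 days, equal to 1.26%, 1.01% and 1.38% of the UMIs of the members. Rps12-ps3 was the largest of them, with 542, 418 and 502 CPM, against 1439, 1305 and 1253 CPM of Rps12 itself.

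A mixed cluster of 176, 219 and 104 cells, led by Jchain and S100a6, had ribosomal protein shares of 21.1%, 18.8% and 18.7% on chow, after 3 days and after 10 days. It was left out of the main comparisons but is part of the values over all kept cells. The 7, 8 and 18 hepatocyte-like cells had shares of 14.6%, 11.6% and 9.5%. The 3 measured host genes of small nucleolar RNAs, Snhg6, Snhg12 and Epb41l4aos, had ratios of 10 days over 3 days of 0.609, 0.652 and 0.547. Their median log2 ratio to chow was 0.32 after 3 days and -0.27 after 10 days.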
